A study of Mus musculus with 4 samples.

Results

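Transcripts of the mitochondrial respiratory chain were examined in prelimbic cortex, which lies in the medial wall of the frontal lobe. The animals were male mice at postnatal day 90. The set held 91 nuclear genes of the 18193 genes measured. They were found by symbol among probe sets annotated to a single gene: symbols starting with Nduf (complex I, 44 genes), Sdha to Sdhd (complex II, 4 genes), symbols starting with Uqcr and Cyc1 (complex III, 9 genes), Cox4 to Cox8 (complex IV, 17 genes) and Atp5 (complex V, 17 genes). Each gene was read from the brightest of its probe sets, by the mean of all arrays. Of the 91 genes, 51 had more than 1 probe set, 180 probe sets in all. Of the 4 arrays, 2 came from mice with prenatal exposure to fluoxetine, which blocks serotonin reuptake, and 2 from untreated mice. Sex, age, tissue and total RNA input were shared by all arrays. The labels give neither the dose nor the days of exposure, nor the strain, the litters or the number of mice behind each array. The p-values therefore measure only the spread between these samples.

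The respiratory chain carries electrons from NADH and succinate to oxygen in the inner mitochondrial membrane. Complexes I, III and IV pump protons as they do so, and complex V, the ATP synthase, uses the proton gradient to make ATP. Most subunits are encoded in the nucleus and a few core subunits of complexes I, III, IV and V in mitochondrial DNA, so both genomes supply the same machines. Neurons depend on this pathway to restore ion gradients after synaptic activity, and fast-spiking inhibitory neurons are known for dense mitochondria. Some complex IV subunits come as pairs of isoforms from different genes, with a common form and a form of heart, muscle, testis or lung.

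No respiratory chain gene differed between fluoxetine and untreated arrays after correction over all genes: 0 of 91 had an adjusted p below 0.05 in the limma fit, beside 0 percent of all genes tested, and the lowest adjusted p of any gene was 0.335. Before correction 2 members were past p of 0.05 (6.96 percent of all genes were). Both were lower on the fluoxetine arrays and 0 were higher, beside 3.45 percent of all genes higher and 3.51 percent lower. The 2 were Cox8b, the heart and muscle isoform of complex IV subunit 8, and Atp5k, a small membrane subunit of ATP synthase. The median log2 difference, fluoxetine minus untreated, was −0.015 over the 91 members and −0.020 over all genes. The members' differences ran from −0.39 to 0.13. None reached 1.5-fold, which 0.638 percent of all genes did.

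Members lay close together on the 4 arrays. Their moderated SE had a median of 0.046, against 0.099 for all genes and 0.067 for genes above the median level. The 95% interval of the difference lay within 1.5-fold in both directions for 89 of the 91 members and within 1.1-fold for 37. For the remaining members the interval reached beyond 1.1-fold, so changes above that size were not excluded with 2 arrays a group. An exact permutation test of 2 against 2 cannot give a two-sided p below 0.333. Most members were bright on the array: 83 of the 91 had a mean above 7.87, the median of all genes. Among all genes above that level 7.89 percent were past an unadjusted p of 0.05 (5.73 percent higher, 2.17 percent lower, 0 percent past the correction), and among the 83 members 0 were higher and 1 was lower. A difference above 0 was found for 51.9 percent of these genes and 34 of the 83 members. The groups were apart upwards for 21.8 percent of the genes and 7 members, and downwards for 16.9 percent and 18 members. At least 1.5-fold was reached by 0.11 percent and 0 members.

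**Figure D1:**
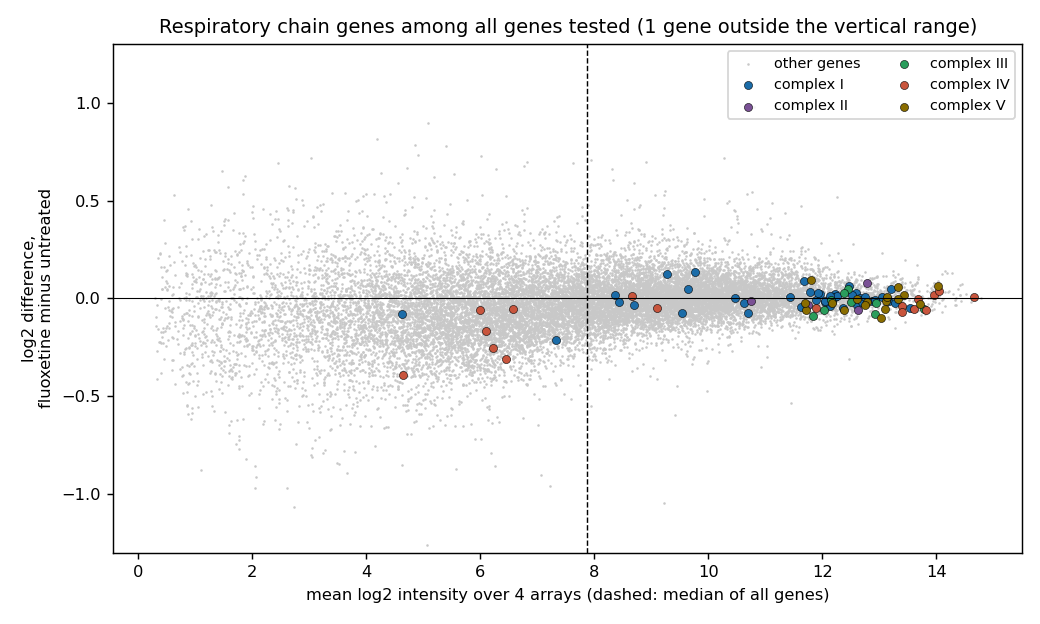
Each point is a gene, with its mean log2 intensity over the 4 arrays on the horizontal axis and its log2 difference (fluoxetine minus untreated) on the vertical axis. Respiratory chain genes are coloured by complex, other genes are grey and 1 gene lies outside the vertical range; the members below the dashed median level, 8 in all, are the dim ones and the other 83 lie between −0.099 and 0.13.

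In this gene set, as in several but not all other mitochondrial lists, an untreated array was most often the highest. Untreated replicate 2 had the highest level of the 4 arrays for 62 of the 91 members (68.1 percent), against 36.1 percent of all genes and 43.6 percent of genes above the median level. The share was 65.8 percent of mitochondrial ribosomal protein genes, 64.7 percent of mitochondrial DNA maintenance genes and 60.6 percent of complex II to IV assembly factors. Fluoxetine replicate 1 was instead most often the highest for tricarboxylic acid cycle genes (14 of 25), carrier and membrane genes (11 of 22) and biogenesis regulators (6 of 17). Untreated replicate 1 was the lowest array for 40 members (44.0 percent), against 45.4 percent of genes above the median level. Relative to each gene's mean over the 4 arrays, the members' median was −0.0068 and −0.0036 on fluoxetine replicates 1 and 2, −0.025 on untreated replicate 1 and 0.041 on untreated replicate 2. By these medians over all members both fluoxetine arrays lay between the untreated ones. By complex this held for I and V only. In complex IV both fluoxetine medians (−0.032 and −0.0098) were below that of untreated replicate 1 (−0.0061). The gap between the untreated arrays had a median of 0.077 and that between the fluoxetine arrays one of 0.032. Over genes above the median level these medians were 0.077 and 0.057, and over all genes 0.11 and 0.087. The untreated gap exceeded the difference between the groups for 68 of the 91 members. It did so for 5517 of 9096 genes above the median level and 10952 of all 18193 genes.

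The direction of the small differences followed which untreated array was kept. With all arrays 34 members had a difference above 0 (37.4 percent, against 42.5 percent of all genes), and 16 or 25 did after quantile normalization or subtraction of array medians. Without untreated replicate 2 the count was 57 and the median 0.026, and Atp5b, Ndufaf1, Ndufb10 and Sdha were higher and Ndufa4l2 lower past an unadjusted p of 0.05. In that fit 5 percent of all genes were higher and 3.57 percent lower. Without untreated replicate 1 it was 15 and the median −0.051, and Cox7a1, Cox7b2, Cox8b and Ndufaf5 were lower past the same threshold, with 0 higher, beside 6.33 percent of all genes lower and 3.11 percent higher. Ndufb10 and Ndufaf5 were named after their values were seen. Markers of some cell types were also mostly highest on untreated replicate 2, among them 7 of 9 microglia markers, beside 36.1 percent of all genes. Of 7 choroid plexus and ependyma markers, 2 were highest on it, 2 on untreated replicate 1 and 3 on fluoxetine replicate 1. The last include Ttr, named after its values were seen (11.71 and 8.09 with fluoxetine, 6.67 and 8.97 without). All 13 measured markers of striatal medium spiny neurons were highest on untreated replicate 2. Their mean levels were 8.49 and 8.81 on the fluoxetine arrays and 8.65 and 9.67 on the untreated arrays. So were 12 of 13 myelin markers (10.93 and 10.92 with fluoxetine, 10.92 and 11.22 without). The 13 striatal markers were all below 0 (median −0.47), with 1 lower and 0 higher past the unadjusted threshold. Of the myelin markers 12 were below 0 (median −0.13), with 4 lower and 0 higher. Beside these stand 3.51 percent of all genes lower. Without untreated replicate 2 the striatal and myelin medians were 0.047 and −0.0032. None of these markers was at 0, and their part in the members' levels was not tested. In RNA of whole punches, fewer cells of a type and less RNA per cell cannot be told apart. Markers of cortical excitatory neurons were present on all arrays, among them Camk2a at 13.89 to 13.95 and Tbr1 at 9.63 to 10.01. Of the 10 measured, 6 were above 0 and 4 below. Fezf2 (0.33, SE 0.084), Neurod6 (0.24, SE 0.076) and Cux2 (0.17, SE 0.052) were higher with fluoxetine past the unadjusted threshold and 0 were lower. Beside these counts stand 3.45 percent of all genes higher and 3.51 percent lower. Of 10 astrocyte markers, Gjb6 (0.30, SE 0.054), Slc1a3 (0.21, SE 0.059) and Slc1a2 (0.10, SE 0.039) were higher and 0 lower, beside the same shares of all genes, with 9 of the 10 above 0. These 6 genes were named after their values were seen, 0 passed the correction, and their part in the members' differences was not tested. Median intensities over all probe sets ran from 6.44 to 6.50 on the 4 arrays. Poly-A control transcripts, added before labelling, were higher on the fluoxetine arrays for 24 of 24 probe sets, by a median of 0.24. These probe sets read the dap, lys, phe and thr controls, several to a transcript, and are not independent readings.

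**Figure D2:**
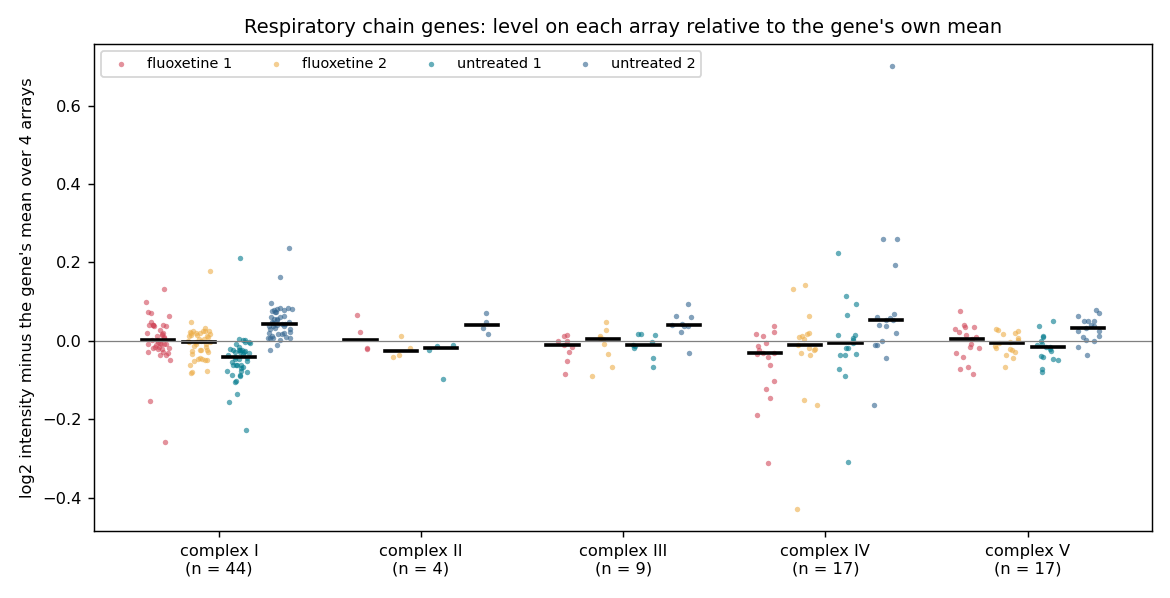
Each point is a respiratory chain gene on 1 array, as its log2 intensity minus its own mean over the 4 arrays, with the genes grouped by complex and the black bars at the medians. Untreated replicate 2 has the highest median in each of the 5 complexes (0.044, 0.041, 0.041, 0.054 and 0.032 for I to V), while both fluoxetine arrays and untreated replicate 1 have medians between −0.042 and 0.0061.

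Complex I takes electrons from NADH. Its 44 genes had a median difference of −0.0017, with 22 above 0 and 22 below, and 0 passed an unadjusted p below 0.05 in either direction. Both fluoxetine arrays lay above both untreated arrays for 2 of the 44 genes and below them for 6. Over all 91 members these counts were 7 and 21, or 7.69 and 23.1 percent, beside 15.5 and 22.3 percent of all genes. The core subunits, which hold the flavin and the iron-sulfur clusters, had 6 measured genes with a median of 0.013 and a range of −0.017 to 0.061. Ndufv1, the flavoprotein that first oxidises NADH, read 12.54 and 12.53 with fluoxetine and 12.45 and 12.59 without. The untreated arrays bracketed the fluoxetine ones, and the difference was 0.019 (SE 0.051). Ndufs1, the largest iron-sulfur subunit, read 11.43 and 11.45 with fluoxetine and 11.40 and 11.48 without, again with overlapping groups and a difference of 0.0057 (SE 0.048). Ndufs7 and Ndufs8, which carry clusters near the quinone site, differed by 0.026 (SE 0.065) and −0.017 (SE 0.042).

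Accessory subunits, which surround the core and stabilise it, numbered 28, with a median of −0.0084 and a range of −0.080 to 0.088. The lowest, Ndufb4, was read from a dim probe set at 4.38 and 4.81 with fluoxetine and 4.48 and 4.87 without. Its 2 brighter probe sets are annotated also to near-identical copies and were left out of the fit; they differed by 0.053 and −0.048. Ndufab1, the mitochondrial acyl carrier protein, differed by −0.018 (SE 0.046), while 1 of its other 4 probe sets, at a mean of only 2.62, differed by 0.59. Assembly factors build the complex without staying in it. The 8 measured Ndufaf genes had a median of 0.010. Ndufaf1 read 9.90 and 9.77 with fluoxetine and 9.54 and 9.86 without, a difference of 0.13 (SE 0.11) that was 0.29 without untreated replicate 2 and −0.029 without untreated replicate 1. Ndufaf7, a methyltransferase that modifies a core subunit, read 9.37 and 9.29 with fluoxetine and 9.17 and 9.25 without, so that the groups did not overlap, with a difference of 0.12 (SE 0.067, unadjusted p = 0.105 in limma). Ndufaf4, named after its values were seen, differed by 0.049 on the chosen probe set and by 0.26 on its other one.

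Ndufa4 and Ndufa4l2 carry complex I names, but Ndufa4 is now placed in complex IV. Ndufa4 read 13.54 and 13.50 with fluoxetine and 13.55 and 13.59 without, with a difference of −0.048 (SE 0.036). Its paralogue Ndufa4l2, which is induced by hypoxia and marks vascular mural cells in brain, read 7.18 and 7.27 with fluoxetine and 7.54 and 7.33 without. Both fluoxetine arrays were below both untreated ones, with a difference of −0.21 (SE 0.11, unadjusted p = 0.0940 in limma) that was −0.32 without untreated replicate 2 and −0.11 without untreated replicate 1. The 12 measured endothelial and mural markers, which include Ndufa4l2 and Cox4i2, had a median of 0.011 with 0 past an unadjusted p of 0.05.

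**Figure D3:**
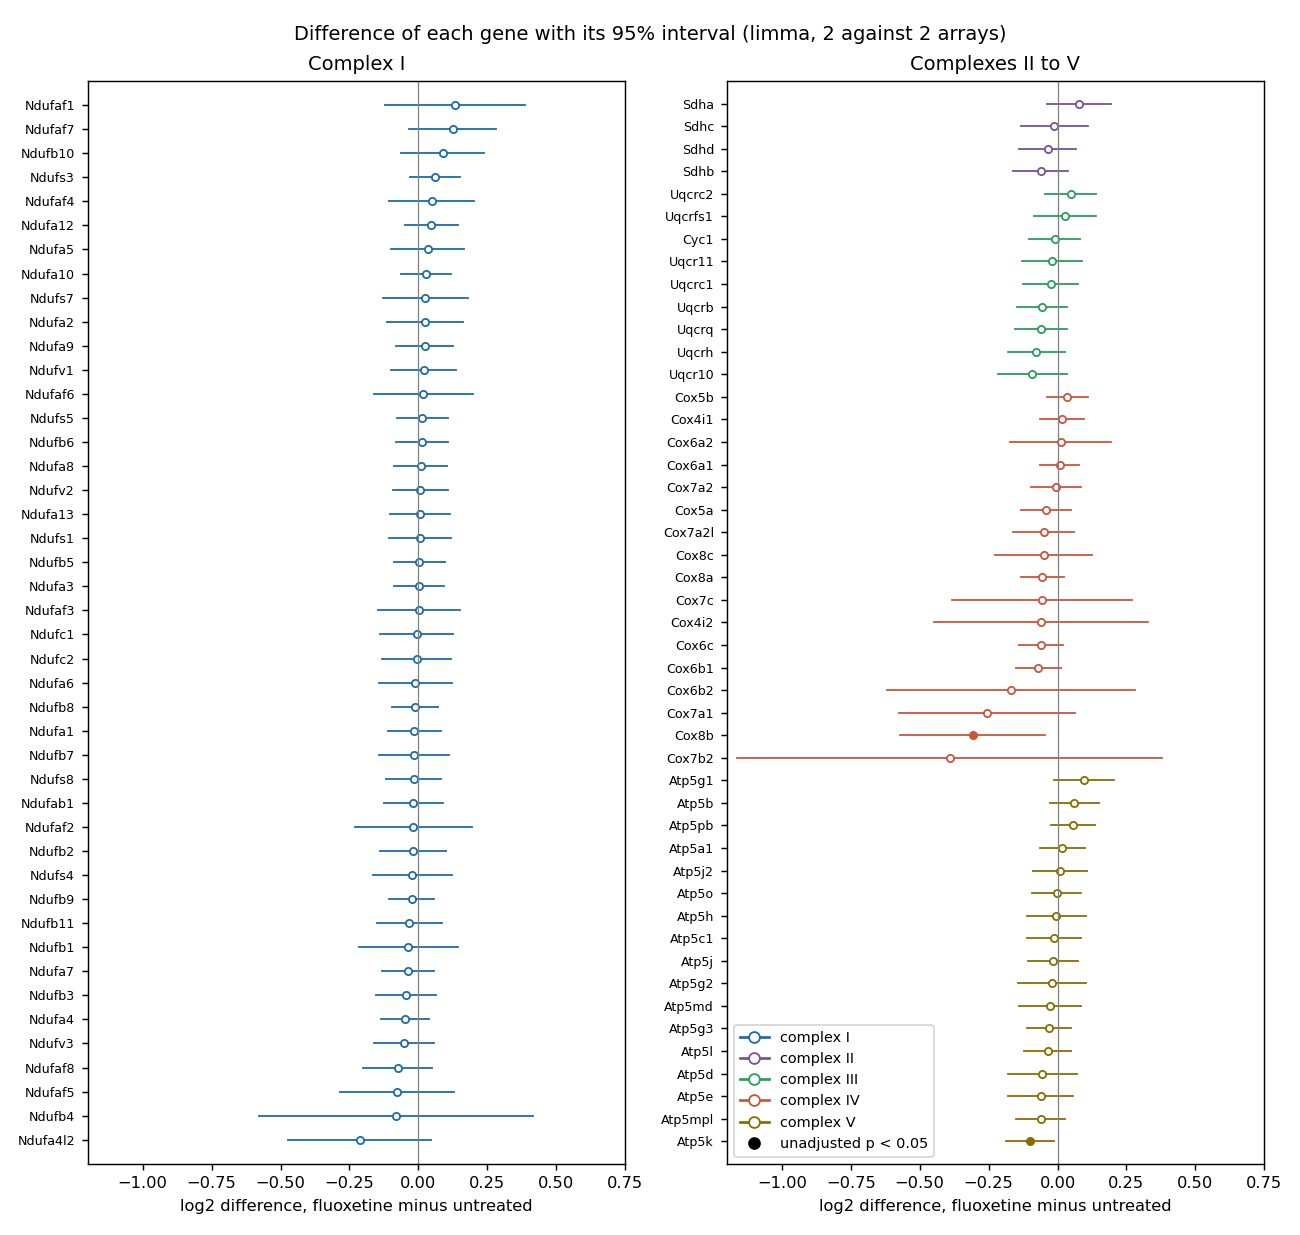
Points show the log2 difference (fluoxetine minus untreated) of each of the 91 genes and lines its 95% interval from limma, with complex I on the left and complexes II to V on the right, ordered within a complex by the difference. Filled points mark the 2 genes at an unadjusted p below 0.05, Cox8b and Atp5k; the widest intervals belong to dim probe sets such as Cox7b2, Ndufb4 and Cox6b2.

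Complex II, succinate dehydrogenase, links the tricarboxylic acid cycle to the chain and is wholly encoded in the nucleus. Its 4 genes had a median of −0.024, and 0 passed. Sdha, the flavoprotein that oxidises succinate, read 12.85 and 12.80 with fluoxetine and 12.69 and 12.81 without, a difference of 0.078 (SE 0.049) that was 0.13 without untreated replicate 2 and 0.021 without untreated replicate 1. Its next brightest probe set differed by −0.041. Sdhb, the iron-sulfur subunit, went the other way, with 12.61 and 12.58 on the fluoxetine arrays below 12.61 and 12.70 and a difference of −0.061 (SE 0.043). The membrane anchors Sdhc and Sdhd differed by −0.012 (SE 0.051) and −0.036 (SE 0.044), and the dimmer probe set of Sdhd by 0.20.

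Complex III passes electrons from ubiquinol to cytochrome c. Its 9 genes had a median of −0.024, with 2 above 0 and 7 below, and 0 passed. Cyc1, cytochrome c1, read 12.13 and 12.16 with fluoxetine and 12.14 and 12.17 without, a difference of −0.011 (SE 0.040). Uqcrfs1, the Rieske iron-sulfur protein, differed by 0.027 (SE 0.047). The core proteins Uqcrc1 and Uqcrc2 differed by −0.024 (SE 0.042) and 0.048 (SE 0.039). Uqcrc2 was the gene of this complex with both fluoxetine arrays above both untreated ones (12.45 and 12.50 against 12.43 and 12.42), and its other probe set differed by 0.17. Uqcrh, the hinge protein that binds cytochrome c, read 12.84 and 12.93 with fluoxetine and 12.94 and 12.98 without. Its 2 probe sets differed by −0.078 and −0.11. Uqcr10, a small subunit, had the lowest value of the complex at −0.091 (SE 0.053), and its 3 probe sets ran from −0.11 to −0.076. The remaining small subunits (Uqcr11, Uqcrb and Uqcrq) lay between −0.061 and −0.019.

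Complex IV, cytochrome c oxidase, reduces oxygen. Its 17 genes had a median of −0.055, with 4 above 0 and 13 below. The median was −0.0073 without untreated replicate 2 and −0.024 without fluoxetine replicate 1. The 9 common subunits had a median of −0.041 and a range of −0.070 to 0.036, with 0 past an unadjusted p of 0.05. Cox4i1, the common form of the subunit that senses ATP, read 13.97 and 13.96 with fluoxetine and 13.93 and 13.98 without, a difference of 0.016 (SE 0.034). Cox5a and Cox5b differed by −0.041 (SE 0.039) and 0.036 (SE 0.032), and the 6 probe sets of Cox5b ran from −0.20 to 0.071. Cox6a1 differed by 0.0080 (SE 0.030) and Cox7a2 by −0.0048 (SE 0.038). Cox6b1, which lies where monomers of the enzyme meet, read 13.36 and 13.36 with fluoxetine and 13.41 and 13.45 without. The groups did not overlap, and the difference was −0.070 (SE 0.035, unadjusted p = 0.0836 in limma). It was −0.082, past the unadjusted threshold, after quantile normalization. Cox8a, the common form of subunit 8, read 13.58 and 13.59 with fluoxetine and 13.63 and 13.65 without, a difference of −0.055 (SE 0.033). Cox7a2l, which ties complexes III and IV into supercomplexes, differed by −0.050 (SE 0.047), with all 3 of its probe sets between −0.050 and −0.038.

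Tissue isoforms of complex IV belong mainly to organs other than brain, and 5 of the 7 measured were below the median level of all genes. Their median was −0.17, with 6 below 0 and 1 lower at an unadjusted p below 0.05. Of all genes at or below the median level, 66.9 percent were not above 0, and 4.85 percent were lower and 1.18 percent higher at that threshold. Cox8b read 6.31 and 6.30 with fluoxetine and 6.57 and 6.65 without. Both fluoxetine arrays were below both untreated arrays, and Cox8b was 1.24-fold lower (log2 difference −0.31, SE 0.11, 95% interval −0.57 to −0.044, unadjusted p = 0.0282 and adjusted p = 0.705 in limma). With an array left out the difference stayed between −0.35 and −0.27, and it passed in 1 of these 4 fits. Cox7a1, the muscle isoform of subunit 7a, read 6.12 and 6.07 with fluoxetine and 6.21 and 6.48 without, a difference of −0.25 (SE 0.14, unadjusted p = 0.101). Skeletal and heart muscle markers, 10 measured, had a median of −0.046, with 3 above 0 and 7 below. At the unadjusted threshold 1 was higher and 0 were lower, beside 3.45 and 3.51 percent of all genes. Ckm, the muscle creatine kinase, differed by −0.041 at levels of 6.37 to 6.61. Myh2 (−0.42, SE 0.18) and Mb (−0.24, SE 0.12) had both fluoxetine arrays below both untreated ones, and Myh1 (0.59, SE 0.18) had both above. Myh2, Mb and Myh1 were named after their values were seen, and the part of muscle markers in the isoforms' differences was not tested. Cox6a2, a muscle isoform that is also found in parvalbumin interneurons, read 8.66 and 8.68 with fluoxetine and 8.59 and 8.73 without, a difference of 0.011 (SE 0.078). Its dimmer probe set differed by 0.23 (SE 0.15). Pvalb itself read 11.17 and 10.25 with fluoxetine and 10.25 and 10.36 without, and a link between Pvalb and Cox6a2 was not tested. Cox4i2, the oxygen-responsive form of subunit 4, differed by −0.060 (SE 0.16). The testis forms Cox6b2, Cox7b2 and Cox8c differed by −0.17 (SE 0.19), −0.39 (SE 0.33) and −0.050 (SE 0.075). Cox7b2 stood at 5.35 on untreated replicate 2 and at 4.22 to 4.69 on the other arrays. The other probe set of Cox8c differed by −0.40.

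ATP synthase, complex V, consists of a catalytic F1 head and a membrane-bound Fo rotor and stator. Its 17 genes had a median of −0.016, with 5 above 0 and 12 below. In the head, Atp5b, the catalytic beta subunit, read 14.06 and 14.05 with fluoxetine and 13.95 and 14.03 without. The groups did not overlap and the difference was 0.061 (SE 0.038), or 0.10 without untreated replicate 2 and 0.021 without untreated replicate 1. Atp5a1 (alpha) and Atp5c1 (gamma, the central stalk) differed by 0.017 (SE 0.034) and −0.012 (SE 0.042). Atp5g1, Atp5g2 and Atp5g3 encode the same mature c subunit of the rotor ring. Atp5g1 read 11.88 and 11.82 with fluoxetine and 11.72 and 11.78 without, with no overlap and a difference of 0.095 (SE 0.046, unadjusted p = 0.0788 in limma), and its dim second probe set differed by 0.44. Atp5g2 and Atp5g3 differed by −0.021 (SE 0.052) and −0.031 (SE 0.034). Atp5k, the e subunit that helps join ATP synthase into dimers, read 12.95 and 13.00 with fluoxetine and 13.08 and 13.08 without. It was 1.07-fold lower (log2 difference −0.099, SE 0.037, 95% interval −0.19 to −0.013, unadjusted p = 0.0290 and adjusted p = 0.705 in limma), and it passed in 1 of the 4 fits that left an array out. Its other 2 probe sets differed by −0.072 and 0.053. Atp5o, which links the head to the stator, differed by −0.0036 (SE 0.037) on the chosen probe set and by 0.32 on the other one. Atp5mpl, a small Fo subunit, read 12.33 and 12.35 with fluoxetine and 12.41 and 12.40 without, a difference of −0.061 (SE 0.038). The remaining 8 members of the complex lay between −0.061 and 0.057.

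Probe sets of the same gene did not always share a sign. Of the 51 genes with several probe sets, 29 had all of them on the same side of 0 and 22 had both signs, and the range over a gene's probe sets had a median of 0.10. Taking the most variable probe set of each gene put 6 members above and 1 below at the unadjusted threshold, beside 6.52 and 3.21 percent of all genes, and 0 passed the correction (lowest adjusted p of a member 0.281). Cox7c, a small common subunit of complex IV, had only dim single-symbol probe sets (6.38 to 6.70 on the brighter). Only 45 of the 91 chosen probe sets were of the unique design, and the others may also read related transcripts.

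The promoters were compared because nuclear respiratory chain genes are known to share sites for the factors NRF1, GABP (an ETS factor) and YY1. RefSeq promoter windows (GRCm38.p6; 250 bases before to 50 after a start, the first listed window of a gene) were found for 74 of the 91 members. The NRF1 motif (GCGC, any base, T, then GCGC again), on either strand, was in 21.6 percent of the members' windows and in 7.95 percent of those of 14452 genes on the array. The ETS motif CCGGAAG was in 24.3 and 13.8 percent, and the YY1 motif AAGATGGCG in 8.11 and 2.33 percent, both strands searched. The windows had a median G and C content of 59.0 percent in members and 58.7 percent in the genes on the array. Members with and without the NRF1 motif had median differences of −0.0076 (16 genes) and −0.017 (58 genes). With and without the ETS motif these were −0.031 (18 genes) and −0.011 (56 genes). A match of letters is a description of the sequence and not a measured binding site. The 100 bases before the start are shown for Atp5k and Cox8b, the members at an unadjusted p below 0.05, for Cox8a, the common counterpart of Cox8b, and for Sdha, with several NRF1 matches, and for Atp5g2, with the same single match as Atp5k. Each is on the minus strand, written 5′ to 3′, with NRF1 matches in capitals, at chr5:108434400-108434499, chr7:140900447-140900546, chr19:7217617-7217716, chr13:74350241-74350340 and chr15:102671048-102671147 in that order.
Atp5k: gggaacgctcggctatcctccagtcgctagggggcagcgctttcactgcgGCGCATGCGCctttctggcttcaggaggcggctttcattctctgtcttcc
Cox8b: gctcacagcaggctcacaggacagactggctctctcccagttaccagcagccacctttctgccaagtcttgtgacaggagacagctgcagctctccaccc
Cox8a: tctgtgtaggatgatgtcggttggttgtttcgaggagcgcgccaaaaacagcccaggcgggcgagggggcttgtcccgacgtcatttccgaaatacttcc
Sdha: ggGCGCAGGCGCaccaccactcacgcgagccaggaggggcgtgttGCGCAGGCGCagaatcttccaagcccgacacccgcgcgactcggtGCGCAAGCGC
Atp5g2: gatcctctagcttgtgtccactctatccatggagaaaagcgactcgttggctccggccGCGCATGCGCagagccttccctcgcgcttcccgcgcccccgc
Atp5k and Atp5g2 each hold the palindromic form GCGCATGCGC, and Sdha holds 3 matches. The muscle isoform Cox8b has no match and 0 CG dinucleotides in these 100 bases, against 9 CG dinucleotides in Cox8a. Cox8a has ETS matches at bases −5 to 1 from the start, across the start itself, and at 32 to 38, and neither is in capitals.

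The regulators of these promoters were read from a list of 17 measured genes with a median difference of 0.021. At the unadjusted threshold 3 passed as higher and 1 as lower, leaving 13, beside 3.45 percent of all genes higher and 3.51 percent lower. With an array left out the median ran from 0.020 to 0.046. Nrf1 read 6.84 and 7.16 with fluoxetine and 7.17 and 6.76 without, a difference of 0.033 (SE 0.17). Gabpa differed by 0.021 (SE 0.068) and Yy1 by 0.0026 (SE 0.051). Among the coactivators that drive mitochondrial biogenesis, Ppargc1a differed by 0.14 (SE 0.063, unadjusted p = 0.0599 in limma), Ppargc1b by 0.16 (SE 0.066) and Pprc1 by 0.22 (SE 0.085), each with both fluoxetine arrays above both untreated ones. The deacetylase Sirt1 differed by 0.28 (SE 0.11). Esrra, the nuclear receptor partner of these coactivators, was on the other side at −0.15 (SE 0.063).

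Other energy genes were given beside the chain. The tricarboxylic acid cycle and pyruvate entry list had 5 of 25 members higher and 0 lower, with a median of 0.063. These were Mpc1, a subunit of the mitochondrial pyruvate carrier (0.12, SE 0.042), Pdp1, the phosphatase that activates pyruvate dehydrogenase (0.15, SE 0.052), the dehydrogenases Mdh2 (0.11, SE 0.042) and Idh3g (0.12, SE 0.050), and Pdk4, a kinase that inhibits pyruvate dehydrogenase (0.28, SE 0.12; named after its values were seen). Beside the 5 stand 3.45 percent of all genes and 5.73 percent of genes above the median level, where all 25 lie. The count was 0 without fluoxetine replicate 1, without untreated replicate 1 and without the intensity trend, where 0.995, 3.11 and 2.15 percent of all genes were higher. It was 8 without untreated replicate 2, where 5 percent were. In glycolysis and lactate transport 2 of 20 were higher and 1 lower: the glucose transporter Slc2a1 (0.20, SE 0.046), Pfkfb3, which makes the activator of phosphofructokinase (0.34, SE 0.080), and the hexokinase Hk2 (−0.30, SE 0.10). Mitochondrial ribosomal proteins, the largest list, had 0 of 76 higher and 1 lower, Mrpl46 (−0.13, SE 0.052), with a median of −0.010. Mitochondrial protein import had 1 of 23 higher, Tomm20 (0.11, SE 0.043), and carriers and membrane proteins 1 of 22, Chchd6 (0.15, SE 0.062). Among cytochrome c and coenzyme Q genes 1 of 17 was higher, Coq10b (0.23, SE 0.057). The shares of all genes, 3.45 percent higher and 3.51 percent lower, stand beside the counts of each of these lists. Cycs, cytochrome c itself, differed by 0.10 (SE 0.044, unadjusted p = 0.0539 in limma).

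Assembly factors outside the symbol rule had 0 of 10 past an unadjusted p of 0.05 for complex I, 0 of 33 for complexes II to IV and 0 of 5 for complex V, with medians of 0.049, −0.022 and 0.014. Mitochondrial DNA maintenance genes had 0 of 17 and antioxidant genes 0 of 10. Of the chain genes in mitochondrial DNA, ND5, a proton-pumping subunit of complex I, was measured and read 14.32 and 14.20 with fluoxetine and 14.17 and 14.09 without, a difference of 0.13 (SE 0.049, unadjusted p = 0.031 in limma) that was 0.069 to 0.19 with an array left out. None of the 17 list genes at an unadjusted p below 0.05, 14 of them higher, passed the correction over all genes, and 3 (Coq10b, Pfkfb3 and Slc2a1) passed the unadjusted threshold in each of the 4 fits that left an array out. Esrra and Mrpl46 passed in 0 of these fits. Over them Sirt1 and Pdk4 each ranged from 0.15 to 0.41. Beside the 17 stand 6.96 percent of all genes past an unadjusted p of 0.05, 3.45 percent higher and 3.51 percent lower. Above the median level 5.73 percent of genes were higher and 2.17 percent lower. Whether any list differed from all genes or from the respiratory chain was not tested.

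**Figure D4:**
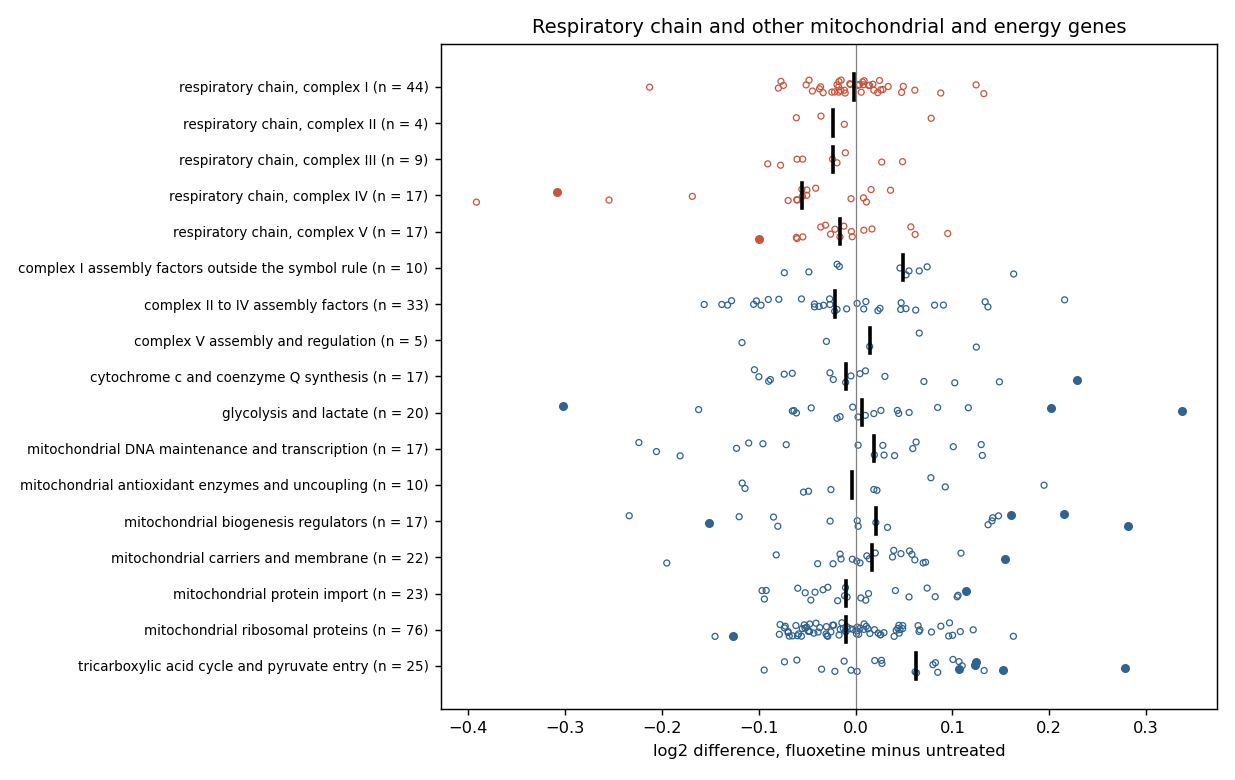
Each point is a gene, placed by its log2 difference (fluoxetine minus untreated), in rows for the 5 respiratory complexes (red) and the other mitochondrial and energy lists (blue), with filled points at an unadjusted p below 0.05 and black bars at the medians. The medians of the complexes lie between −0.055 and −0.0017 and that of the tricarboxylic acid cycle list at 0.063.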

How the data were processed

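The authors deposited log2 intensities per probe set, normalized between arrays. RMA, affy and limma are named without versions, per the submitters' processing notes; the background correction and genome build are not given in the sources used here, and base 2 was taken from the range of the table (−0.08 to 15.14). Of 45101 rows, 64 were array controls, 34945 probe sets had 1 gene symbol and were used, 932 had several and 9160 no annotation. The brightest probe set over the 4 arrays stood for a gene, without a filter on low values. Fluoxetine was compared with untreated with limma 3.58.1 in R 4.3.3 (lmFit, eBayes with an intensity trend, two-sided, 2 residual and 5.15 prior degrees of freedom), with Benjamini-Hochberg adjustment over 18193 genes. RMA-type values can understate differences of dim transcripts. The number of arrays limits the precision. Code was tested on simulated data. The members, gene lists and the rule for named genes were chosen with earlier results of these data known: members at an unadjusted p below 0.05, the 2 highest and 2 lowest per complex, fixed core subunits and isoform pairs, genes whose probe sets disagree, and up to 4 called genes per other list. Lists were described by counts and medians without a list test.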

Additional observations from a re-analysis of the deposited data

How the results depend on the processing

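Members past the correction numbered 0 under all 12 alternatives. Members lower at an unadjusted p below 0.05 (2) became 8 after quantile normalization, where the share of all genes lower went from 3.51 to 6.12 percent. They became 3 after subtraction of array medians (4.66 percent of all genes). The count was 1 without the intensity trend, with the mean of all probe sets and with the most variable probe set. In these settings 5.02, 3.99 and 3.21 percent of all genes were lower. It was also 1 over the 45 members with unique-design probe sets and over the 73 structural subunits, from the main fit. Members higher (0) became 4 with the mean of all probe sets and 6 with the most variable one, where 4.58 and 6.52 percent of all genes were higher. With an array left out, the counts ran from 0 to 4 higher (0.995 to 5 percent of all genes) and from 0 to 4 lower (1.03 to 6.33 percent). The median ran from −0.051 to 0.026 over all members, from −0.048 to 0.042 for complex I, −0.053 to 0.0057 for II, −0.066 to 0.00088 for III, −0.067 to −0.0073 for IV and −0.044 to 0.0075 for V. The complex II median was −0.064 after quantile normalization and −0.068 with the most variable probe set. Atp5k reversed to 0.053 with its most variable probe set. The causes were not tested. No paired analysis was possible because the labels give no replicate numbers shared between groups. With 2 arrays a group, differences within the intervals given could not be detected, and dim probe sets rest on signal near background.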
